A study of Homo sapiens with 9 samples.

Results

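The genes described here are 36 genes of DNA replication and S phase, chosen by symbol from the 17911 genes of a table of read counts. They fall into 6 roles: 10 genes of origin recognition and licensing, 6 of helicase activation, 10 of polymerases, primase, clamp and clamp loader, 2 of the lagging strand, 4 of nucleotide supply, and 4 of S phase control and maintenance of DNA methylation. All 36 passed the filter on low counts in each comparison. No measured value was used to choose them, although earlier results of these data were known.

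RNA sequencing libraries were made from 3-dimensional cultures labelled MDA-MB-231, an established human line from a triple-negative breast cancer, grown as capsules (3 samples) or as spheroids by liquid overlay (6 samples, 3 small and 3 large). In liquid overlay, cells gather into spheroids above a surface to which they cannot attach. The labels give all samples, capsules included, the same conditions: wild type cells, RPMI with 10% fetal bovine serum, liquid overlay with 5% Matrigel (a basement membrane extract) after trastuzumab (an antibody to the receptor ERBB2), and TRIzol extraction after 96 h. No group without trastuzumab was analysed here, the labels do not describe how a capsule was made, and nothing in them says that replicates came from separate cultures, so p-values measure only the spread between libraries, which may be technical.

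A cell copies its genome only one time in each cycle. In G1, the origin recognition complex, CDC6 and CDT1 load the ring-shaped MCM helicase onto DNA. At the start of S phase, CDC45 and the GINS complex turn that ring into an active helicase, and polymerases follow it, held on DNA by the sliding clamp PCNA. The E2F transcription factors, restrained by the RB protein until cyclin-dependent kinases act, switch on most of these genes, so in tumour cultures their mRNAs are widely read as a sign of proliferation.

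The 9 libraries fell into 3 sets by name. The 3 capsule columns each matched 1 sample. Of the 6 spheroid columns, 3 carry "L.O." and 3 carry "Sph" in their names, with no size, so which are small and which are large cannot be told and the sizes were not compared. Totals were 13212665 to 13735221 counts in the capsule libraries, 15525725 to 15988167 in the L.O. libraries and 16605098 to 33263076 in the Sph libraries. Across genes, Pearson's r of log2(CPM + 0.5) was 0.993 to 0.996 within a set, 0.979 to 0.986 between capsule and L.O. libraries, and 0.75 to 0.773 between the Sph libraries and the others. The spheroid group therefore holds libraries that stand far apart.

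The capsule and L.O. libraries went against their cell line label. The summed level of 15 genes listed as abundant in MDA-MB-231 was 604 to 607 CPM in capsule libraries, 741 to 855 in L.O. libraries and 8465 to 9137 in Sph libraries, and 10, 7 and 0 of these genes were under 10 CPM. CD44, the hyaluronan receptor, averaged 2.12, 4.95 and 1019 CPM. CDKN2A and CDKN2B, inhibitors of G1 kinases that are deleted in MDA-MB-231, summed to 470 to 555, 442 to 630 and 0.78 to 1.38 CPM. A list of 8 genes abundant in HEK293, an embryonic kidney line, summed to 1991 to 2175, 1702 to 1818 and 70.6 to 78.6 CPM, and 3 of them (NEFL, PAX2 and LHX1) were at 0 in the Sph libraries. Markers of fibroblasts summed to 40.3 to 45.3, 77.5 to 87.4 and 39.1 to 50.3 CPM over 4 of 5 genes, with DCN not among the genes of the table. Of these, LUM and PDGFRB were at 6.87 ± 2.55 and 15.4 ± 2.66 CPM in Sph libraries (SD, n = 3) and under 1.01 CPM in every other library. COL1A1 went the other way, averaging 37.5 CPM in capsule, 74.6 in L.O. and 15.85 in Sph libraries, and COL3A1 averaged 3.9, 5.76 and 5.14 CPM. Endothelial markers summed to 0.49 to 0.955, 1.34 to 2.26 and 7.02 to 12.7 CPM. CD68, a lysosomal protein of macrophages and other cells, averaged 8.25, 23.1 and 108 CPM. The Sph libraries thus differed from all others in the expression of cell line markers, and the part of these differences in the results below was not tested. Libraries are named by their labels and column names throughout.

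Promoters are shown first because E2F sites mark many of these genes. RefSeq promoters on GRCh38.p14, from 250 bases before to 50 bases after the start site, were found for 32 of the 36 genes (MCM4, MCM5, GINS4 and CCNE2 had no entry). They were searched on both strands for 3 forms of the E2F site, TTTGGCGC, TTTCGCGC and TTTCCCGC. At least 1 form was found in 18 of 32 promoters (56.2%), against 572 of 13502 promoters of all genes in the table (4.24%), and against 4.74% of the 11123 promoters with a GC content within the range of these genes. Matches of the first and second form can overlap when one lies on each strand. The share was 6 of 8 in licensing (75%) and 1 of 4 in nucleotide supply (25%). A match describes the letters only, and no binding was measured.

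The 160 bases before the start site follow for 5 genes, chosen for their roles and for how differently their levels behaved below, with matches in capitals, 5′ to 3′ on the gene's strand. MCM6 (chr2:135876444-135876603, minus strand) holds 4 matches in 2 overlapping pairs, first at bases -152 and -90 from the start site. CDT1 (chr16:88803629-88803788, plus strand), PCNA (chr20:5126623-5126782, minus strand) and TYMS (chr18:657493-657652, plus strand) each hold 1 match on the opposite strand, at -35, -59 and -39. E2F1 (chr20:33686386-33686545, minus strand) holds 1 match at -20.
MCM6: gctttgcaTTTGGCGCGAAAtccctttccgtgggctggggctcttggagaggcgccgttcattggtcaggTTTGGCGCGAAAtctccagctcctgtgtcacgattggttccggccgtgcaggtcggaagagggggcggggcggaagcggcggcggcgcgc
CDT1: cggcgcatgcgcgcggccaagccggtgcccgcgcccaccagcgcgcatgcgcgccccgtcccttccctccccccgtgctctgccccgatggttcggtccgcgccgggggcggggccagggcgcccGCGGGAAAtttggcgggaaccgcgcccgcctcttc
PCNA: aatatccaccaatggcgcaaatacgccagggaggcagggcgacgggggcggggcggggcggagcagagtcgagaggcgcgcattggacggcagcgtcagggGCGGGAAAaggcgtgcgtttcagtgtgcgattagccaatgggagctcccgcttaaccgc
TYMS: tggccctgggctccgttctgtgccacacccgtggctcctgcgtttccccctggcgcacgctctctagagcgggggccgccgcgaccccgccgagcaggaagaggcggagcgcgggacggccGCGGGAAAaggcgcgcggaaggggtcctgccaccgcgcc
E2F1: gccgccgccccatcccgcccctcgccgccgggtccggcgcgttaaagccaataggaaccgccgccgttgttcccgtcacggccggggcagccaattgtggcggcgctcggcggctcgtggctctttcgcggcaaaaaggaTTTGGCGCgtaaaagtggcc

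By their median, replication and S phase genes were highest in the capsule libraries, lower in the L.O. libraries and lowest in the Sph libraries. Levels are given as TMM-scaled CPM, counts per 1e6 after edgeR's correction for library composition. The median level of the 36 genes was 120 to 123 CPM in capsule, 90.5 to 98.2 in L.O. and 61.4 to 65.2 in Sph libraries, with no overlap between sets. Together the genes took 0.592 to 0.616%, 0.54 to 0.554% and 0.222 to 0.232% of all counts. In bulk RNA, fewer cycling cells and less of these mRNAs per cell cannot be told apart. For TYMS and CCNE2 all 3 Sph libraries were above the other 6.

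**Figure D1:**
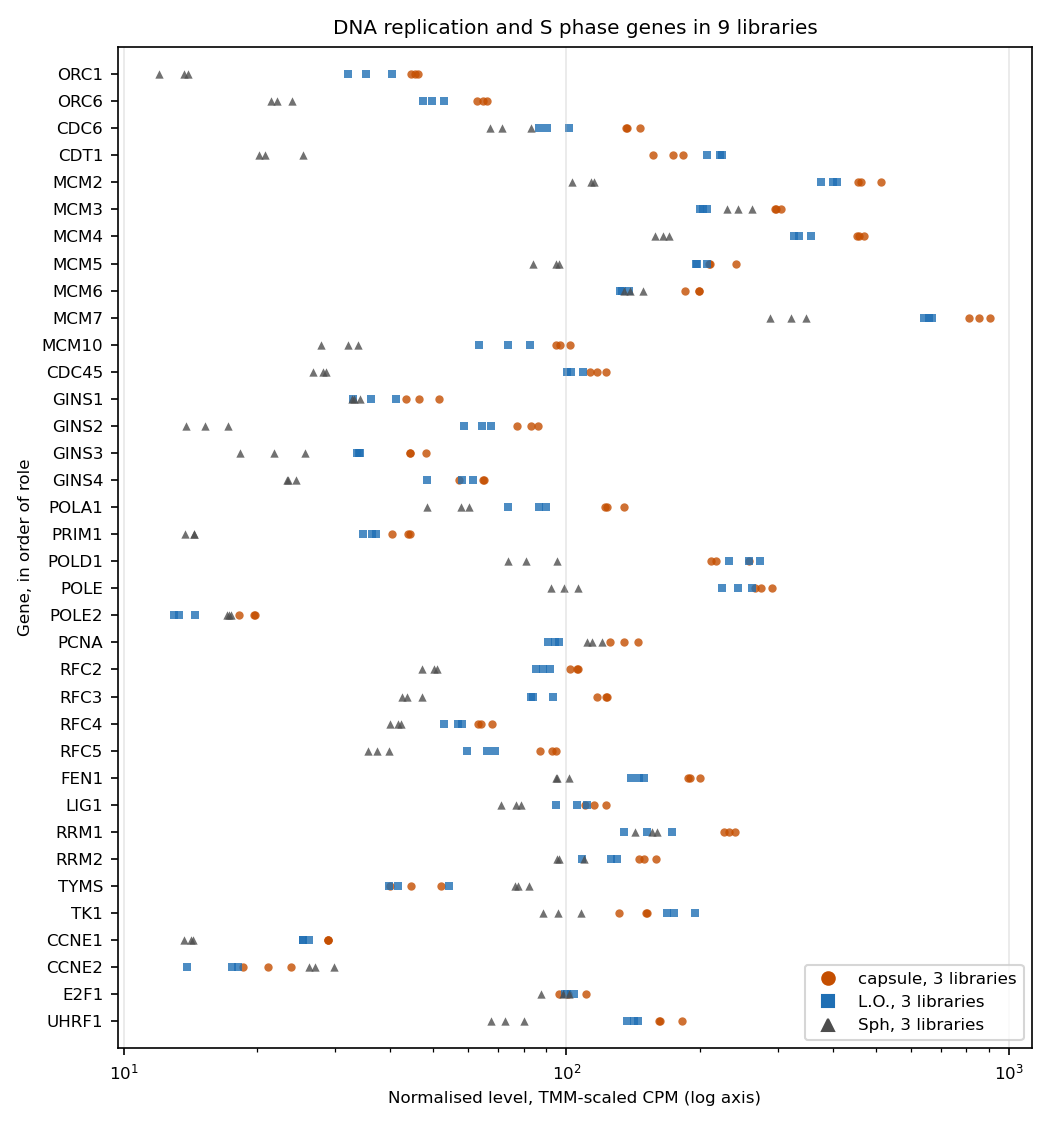
Level of each of the 36 genes in each of 9 libraries, in TMM-scaled CPM on a log axis, with genes ordered by role and 1 point per library. Most genes lie lowest in the Sph libraries and highest in the capsule libraries, whereas TYMS and CCNE2 lie highest in the Sph libraries and the sets mix for E2F1.

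Differences were tested gene by gene with edgeR's quasi-likelihood test and Benjamini-Hochberg adjustment over all genes tested, and a gene was called at an adjusted p below 0.05. With the 6 spheroid libraries as 1 group, 3 of 36 genes were higher in capsules, where 2.3% of 16985 genes were called higher, and 0 were lower, where 1.47% were. At an unadjusted p below 0.05 there were 18, where 29% of all genes passed, and DESeq2 called 11 higher, where it called 7.16% of all genes. The 3 were CDC6 (log2 fold change 0.74 ± 0.14 SE, adjusted p = 0.0299), MCM6 (0.49 ± 0.08, adjusted p = 0.0244) and RRM1 (0.61 ± 0.10, adjusted p = 0.0231). The L.O. and Sph libraries were at 135 ± 3.59 and 141 ± 7 CPM for MCM6, 153 ± 19 and 153 ± 9.07 for RRM1 and 92.7 ± 7.49 and 74 ± 8.18 for CDC6 (SD, n = 3). GINS2, at a log2 fold change of 1.05 ± 0.58, was not called (adjusted p = 0.251), with L.O. libraries at 63.5 ± 4.49 CPM and Sph libraries at 15.4 ± 1.70 CPM. The median log2 fold change was 0.62, against -0.06 over all genes tested. The number called fell to 0 with library totals as the scale, without any 1 capsule library, or without Sph 1. Calls over all genes also fell in each of these fits, as given in the last section. The number of the 36 genes called fell to 1 without Sph 3, and to 1 with a correction for GC content, a gene other than CDC6, MCM6 and RRM1. It was 32 in a fit that gave L.O. and Sph their own levels, where most of all genes tested were also called, higher or lower. Capsules were therefore compared with each set in turn.

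Against the L.O. libraries, the nearer set, 26 of 36 genes were higher in capsules, 2 were lower and 8 were not called. Over all 15919 genes tested, 24.7% were called higher and 25.4% lower. The median difference was 1.27-fold (0.34 on the log2 scale, against -0.01 for all genes), and 0 of 36 reached 2-fold. Against the Sph libraries, 32 were higher and 2 lower, where 43.2% of 16157 genes were called higher and 42.9% lower, and the median difference was 2.26-fold (1.17 on the log2 scale, against 0.01). There 22 of 36 were at least 2-fold higher, where 26.3% of all genes were. Between the spheroid sets, 27 were higher in L.O. and 5 lower, where 42.4% and 43.1% of 16985 genes were called, and 14 were at least 2-fold higher, where 27.2% were, with a median of 1.82-fold (0.86, against -0.01). These comparisons share libraries in pairs, so they are not independent of each other.

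**Figure D2:**
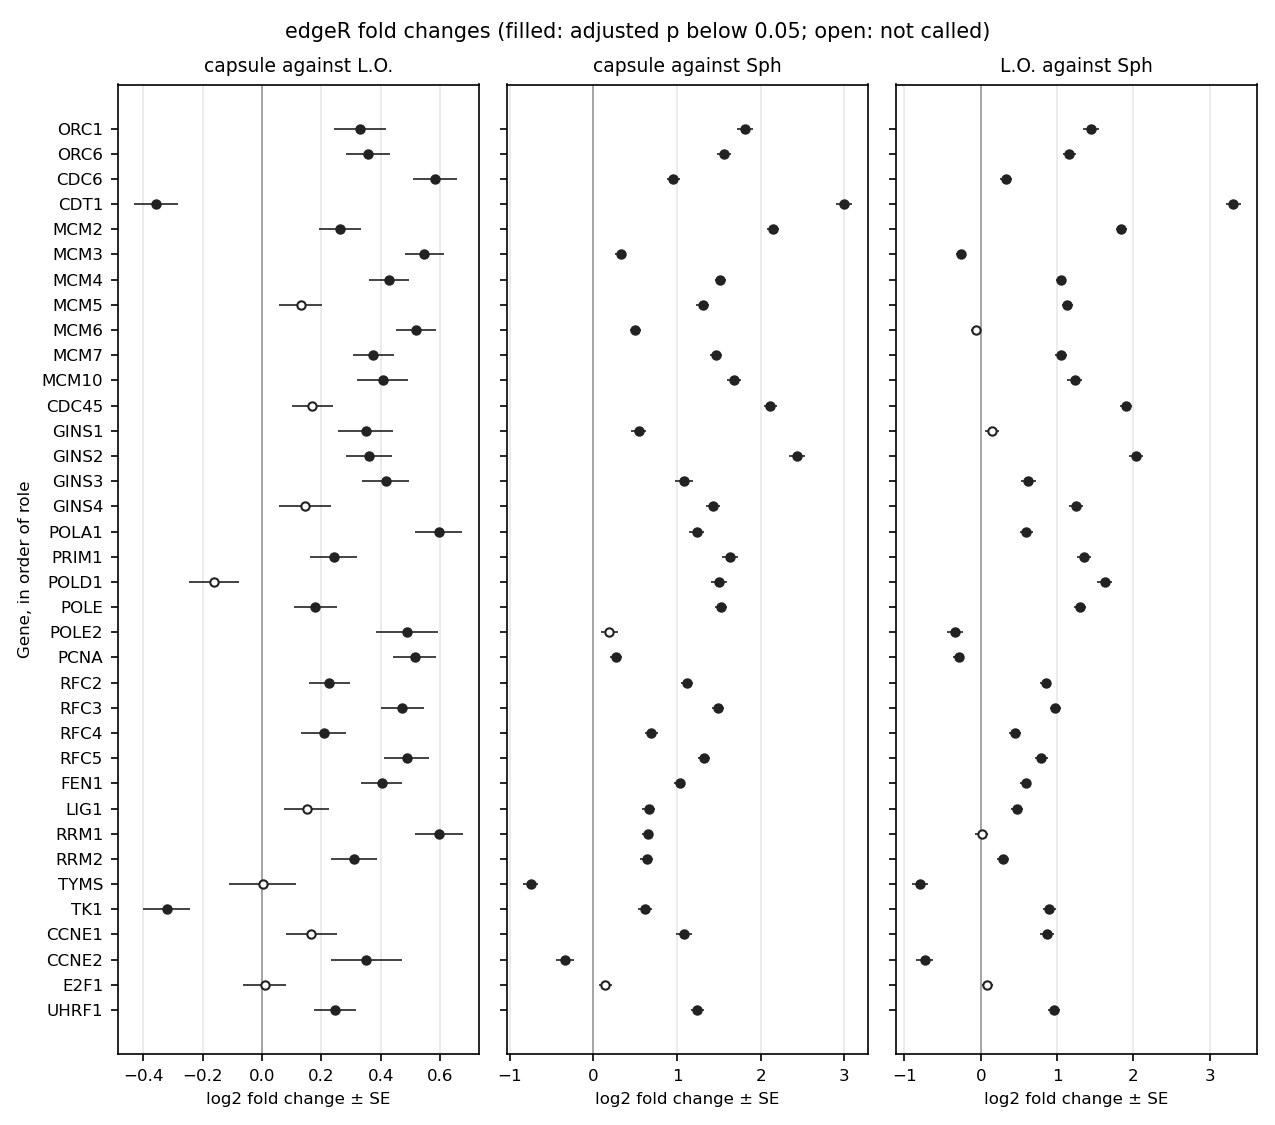
log2 fold change ± SE of each of the 36 genes in 3 comparisons of name sets (3 libraries each), with filled points called at an adjusted p below 0.05 in edgeR and a horizontal scale that differs between panels. Most points lie right of 0, and the points left of 0 differ between panels: CDT1, TK1 and POLD1 for capsule against L.O., TYMS and CCNE2 for capsule against Sph, and MCM3, MCM6, POLE2, PCNA, TYMS and CCNE2 for L.O. against Sph.

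**Figure D3:**
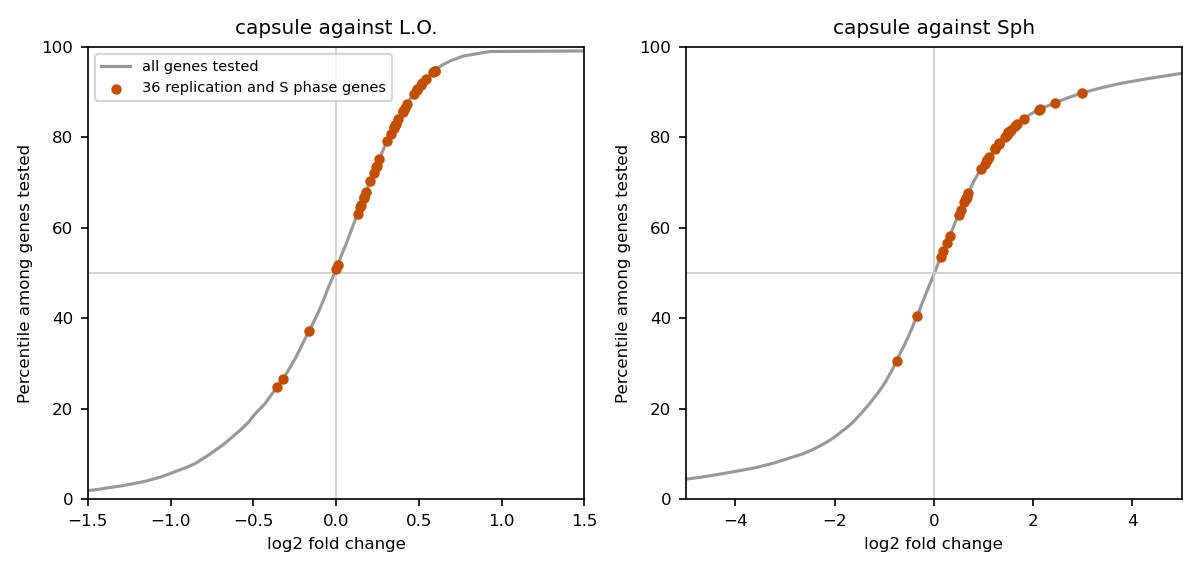
The 36 genes (points) on the cumulative distribution of log2 fold changes over all genes tested (grey line), with the log2 fold change on the horizontal axis and the percentile on the vertical axis. Most points lie above the 50th percentile in both panels, and none lies above 94.8 against L.O. or above 89.8 against Sph.

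The licensing genes were called higher in capsules than in L.O. libraries in 8 of 10 cases and than in Sph libraries in 10 of 10, beside 24.7% and 43.2% of all genes. Their medians were 1.29-fold and 2.81-fold. MCM2, a helicase subunit, was at 461, 512 and 455 CPM in the 3 capsule libraries, 399, 408 and 376 in the L.O. libraries and 115, 114 and 103 in the Sph libraries. The sets did not overlap, and the step between L.O. and Sph was the wider one. Its log2 fold change was 0.26 ± 0.07 against L.O. (adjusted p = 0.00469, edgeR) and 2.15 ± 0.07 against Sph (adjusted p = 1.18e-15). The call against L.O. ended with library totals as the scale (0.11, adjusted p = 0.172, edgeR). MCM3, a second subunit of the same ring, was at 297, 306 and 296 CPM in capsule, 203, 207 and 201 in L.O. and 244, 262 and 230 in Sph libraries. Here the L.O. libraries were lowest, with a log2 fold change of -0.26 ± 0.07 against Sph (adjusted p = 0.00132, edgeR), a direction that turned with library totals or upper quartiles as the scale (0.20 and 0.11). MCM7 was at 852, 907 and 811 CPM in capsule, 668, 643 and 658 in L.O. and 348, 321 and 288 in Sph libraries, 1.30-fold and 2.76-fold higher in capsules (adjusted p = 0.00018 and 6.29e-13). MCM4, MCM5 and MCM6, the remaining subunits, were 1.35-fold, 1.09-fold and 1.43-fold higher in capsules than in L.O. libraries, MCM5 without a call (adjusted p = 0.145), and 2.86-fold, 2.47-fold and 1.42-fold higher than in Sph libraries.

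CDC6, which loads the ring together with CDT1, was at 136, 137 and 147 CPM in capsule, 101, 90.3 and 86.7 in L.O. and 71.6, 83.1 and 67.2 in Sph libraries. Capsules were above all others, by 1.50-fold (adjusted p = 3.51e-06, edgeR) and 1.94-fold (adjusted p = 1.29e-09), and the spheroid sets differed by 1.26-fold (adjusted p = 9.47e-04). CDT1 went the other way between capsule and L.O. libraries, before correction for GC content. Its levels were 174, 183 and 157 CPM in capsule, 208, 222 and 224 in L.O. and 25.4, 20.8 and 20.2 in Sph libraries. It was 1.28-fold lower in capsules than in L.O. libraries (adjusted p = 4.58e-04, edgeR) and 7.96-fold higher than in Sph libraries, and 9.92-fold higher in L.O. than in Sph libraries. With GC correction these were 5.44-fold and 5.52-fold, and GINS2 then differed more than CDT1 between capsule and Sph libraries (5.68-fold). CDT1 and TK1 were singled out after their values were seen. ORC1 and ORC6, subunits of the origin recognition complex, were 1.26-fold and 1.28-fold higher in capsules than in L.O. libraries and 3.52-fold and 2.95-fold higher than in Sph libraries. For ORC1 the call against L.O. libraries ended with library totals (adjusted p = 0.0885, edgeR).

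Among the 6 genes of helicase activation, 4 were called higher in capsules than in L.O. libraries and 6 higher than in Sph libraries, beside 24.7% and 43.2% of all genes. Their medians were 1.28-fold and 2.94-fold. GINS2 was at 83.1, 86.3 and 77.2 CPM in capsule, 64.6, 58.6 and 67.4 in L.O. and 15.3, 17.2 and 13.8 in Sph libraries. The sets were apart, by 1.28-fold (adjusted p = 7.24e-04, edgeR) and 5.42-fold (adjusted p = 5.26e-15). GINS1, its partner in the same complex, was at 43.5, 46.5 and 51.6 CPM in capsule, 41.3, 36.1 and 33 in L.O. and 34.2, 33.2 and 32.8 in Sph libraries. The spheroid sets overlapped here, with a log2 difference of 0.15 (95% interval -0.03 to 0.33, adjusted p = 0.138, edgeR), while capsules were 1.27-fold and 1.45-fold higher. The difference between the spheroid sets was called with library totals (0.61, adjusted p = 3.41e-06, edgeR) and with GC correction (0.57, adjusted p = 1.24e-06). The call of GINS1 higher in capsules than in L.O. libraries ended with both settings (adjusted p = 0.0776 and 0.0969, edgeR). CDC45, which joins MCM and GINS in the active helicase, and MCM10, which assists its activation, were 4.34-fold and 3.20-fold higher in capsules than in Sph libraries. Against L.O. libraries CDC45 was 1.12-fold higher without a call (adjusted p = 0.0503) and MCM10 1.33-fold higher (adjusted p = 5.50e-04). GINS3 and GINS4, the other subunits of GINS, were 1.34-fold and 1.11-fold higher against L.O., GINS4 without a call (adjusted p = 0.182).

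Polymerases, primase, clamp and clamp loader were called higher in capsules than in L.O. libraries for 9 of 10 genes and than in Sph libraries for 9 of 10. This stood beside 24.7% and 43.2% of all genes, and the medians were 1.28-fold and 2.43-fold. RFC3, a subunit of the loader that opens the PCNA ring, was at 123, 117 and 124 CPM in capsule, 93.2, 83.9 and 83.3 in L.O. and 42.5, 43.5 and 47.2 in Sph libraries. The sets did not overlap, with differences of 1.39-fold and 2.81-fold (adjusted p = 2.43e-05 and 4.53e-13, edgeR). PCNA was at 135, 125 and 145 CPM in capsule, 96.2, 91 and 94.2 in L.O. and 111, 120 and 114 in Sph libraries. Capsules were again highest, by 1.43-fold and 1.20-fold (adjusted p = 1.12e-05 and 0.00238), but the L.O. libraries lay under the Sph libraries, by 1.22-fold (adjusted p = 9.76e-04), a direction that turned with library totals or upper quartiles as the scale and a call that ended with GC correction (-0.08, adjusted p = 0.173). POLE2, an accessory subunit of the leading strand polymerase, had the same order, which turned between the spheroid sets under the same scales, at 19.7, 19.8 and 18.2 CPM in capsule, 13.3, 13 and 14.5 in L.O. and 17.5, 17.3 and 17.2 in Sph libraries. Its difference between capsule and Sph libraries was not called (1.14-fold, adjusted p = 0.0842), but was with library totals or GC correction (1.38-fold and 1.30-fold), and its call between the spheroid sets ended with either. POLE, the catalytic subunit, was 1.13-fold and 2.88-fold higher in capsules. POLD1, the catalytic subunit of the lagging strand polymerase, was 2.83-fold higher than in Sph libraries and was not called against L.O. (1.12-fold lower, adjusted p = 0.111). POLA1 and PRIM1, subunits of the polymerase and primase that start each strand, were 1.51-fold and 1.18-fold higher than in L.O. libraries and 2.35-fold and 3.10-fold higher than in Sph libraries. For PRIM1 the call against L.O. libraries ended with library totals (1.07-fold, adjusted p = 0.345, edgeR) and with GC correction (1.02-fold, adjusted p = 0.767).

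On the lagging strand, FEN1, the flap nuclease, was at 189, 200.1 and 190.4 CPM in capsule, 150, 140 and 146 in L.O. and 94.7, 102 and 95.2 in Sph libraries, 1.32-fold and 2.04-fold higher in capsules (adjusted p = 6.85e-05 and 3.18e-11, edgeR). LIG1, the ligase that seals the fragments, was at 110, 123 and 115 CPM in capsule, 106, 111 and 94.5 in L.O. and 78.8, 76.7 and 71 in Sph libraries. Capsule and L.O. libraries overlapped for LIG1 (adjusted p = 0.106), and both were above the Sph libraries.

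Genes of nucleotide supply did not move as a block. RRM1, the large subunit of ribonucleotide reductase, was at 240, 226 and 233 CPM in capsule, 173, 152 and 135 in L.O. and 143, 160 and 156 in Sph libraries. Capsules stood apart by 1.51-fold and 1.57-fold (adjusted p = 6.14e-06 and 3.95e-08, edgeR) and the spheroid sets overlapped (1.01-fold, adjusted p = 0.893), although library totals and GC correction called L.O. libraries higher (1.39-fold and 1.26-fold). RRM2, the small subunit, was 1.24-fold and 1.56-fold higher in capsules. TYMS, which makes thymidylate, was at 52.2, 40 and 44.6 CPM in capsule, 39.7, 41.6 and 54.2 in L.O. and 82.2, 77.7 and 76.4 in Sph libraries. The Sph libraries were highest, 1.68-fold above capsules and 1.73-fold above L.O. libraries (adjusted p = 2.45e-07 and 2.95e-07), while capsule and L.O. libraries overlapped. TK1, the kinase that salvages thymidine, was at 151, 152 and 131 CPM in capsule, 175, 168 and 195 in L.O. and 108, 88.3 and 95.7 in Sph libraries. It was 1.25-fold lower in capsules than in L.O. libraries (adjusted p = 0.00207), a call that ended with the correction for GC content below, and 1.53-fold higher than in Sph libraries (adjusted p = 1.55e-06).

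The cyclins E, which drive entry into S phase, differed in order. CCNE1 was at 28.9, 29 and 29 CPM in capsule, 26.2, 25.4 and 25.4 in L.O. and 14.4, 14.2 and 13.7 in Sph libraries. CCNE1 was 2.11-fold higher in capsules than in Sph libraries (adjusted p = 3.03e-09, edgeR) and, at 1.12-fold, not called against L.O. (adjusted p = 0.113). CCNE2 was at 23.9, 18.6 and 21.2 CPM in capsule, 18.1, 17.6 and 13.9 in L.O. and 27, 26.3 and 29.9 in Sph libraries. The Sph libraries were highest for CCNE2, 1.27-fold above capsules (adjusted p = 0.00615) and 1.66-fold above L.O. libraries (adjusted p = 2.99e-06). The call against capsules ended with library totals as the scale and with GC correction (log2 fold changes of -0.07 and -0.01), and that between the spheroid sets with GC correction (-0.09, adjusted p = 0.419).

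E2F1, the transcription factor that activates many of these genes, was at 101, 111 and 96.2 CPM in capsule, 100.2, 99.5 and 104 in L.O. and 98.3, 101 and 87.6 in Sph libraries. The 3 sets overlapped and none of the comparisons called E2F1 (adjusted p = 0.104 to 0.927, edgeR). The 95% interval of its log2 difference was -0.13 to 0.15 for capsule against L.O., -0.01 to 0.29 for capsule against Sph and -0.06 to 0.24 for L.O. against Sph libraries. These values depended on the setting. With library totals E2F1 was called higher than in Sph libraries in both capsule (0.42, adjusted p = 4.51e-05, edgeR) and L.O. libraries (0.55, adjusted p = 4.23e-07), and with GC correction it was called lower in both (-0.20, adjusted p = 0.00488, and -0.50, adjusted p = 1.53e-07). UHRF1, which guides DNA methylation to newly made DNA, was at 162, 183 and 163 CPM in capsule, 137, 145 and 142 in L.O. and 80.1, 72.7 and 67.5 in Sph libraries. UHRF1 was 1.19-fold and 2.37-fold higher in capsules (adjusted p = 0.00758 and 2.00e-11), with no overlap between sets. With library totals capsule and L.O. libraries overlapped for UHRF1, and the call between them ended (1.07-fold, adjusted p = 0.255, edgeR).

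Subunits of 1 complex were compared per kilobase of joined exons (GENCODE release 29), since counts grow with transcript length. In CPM per kilobase, MCM7 was the highest and MCM5 the lowest of the 6 MCM subunits in all 3 sets, 6.50-fold apart in capsule (195 and 30.1), 5.49-fold in L.O. (150 and 27.3) and 5.82-fold in Sph libraries (72.7 and 12.5). The clamp loader was led by RFC2 in all 3 sets, at 47.3, 40.1 and 22.4 CPM per kilobase. The GINS subunits changed their order. GINS2 led in capsule (25.2 ± 1.41, SD, n = 3) and L.O. libraries (19.5 ± 1.38), whereas GINS1 led in Sph libraries (8.20 ± 0.18, with GINS2 at 4.73 ± 0.52). Among all 36 genes, PCNA was highest per kilobase in Sph libraries (78.4) and MCM7 in the other sets, while CCNE2 was lowest in capsule and L.O. libraries (4.83 and 3.75) and ORC1 in Sph libraries (4.19). These levels are approximate, because joined exons can be longer than the mRNA that a cell makes.

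**Figure D4:**
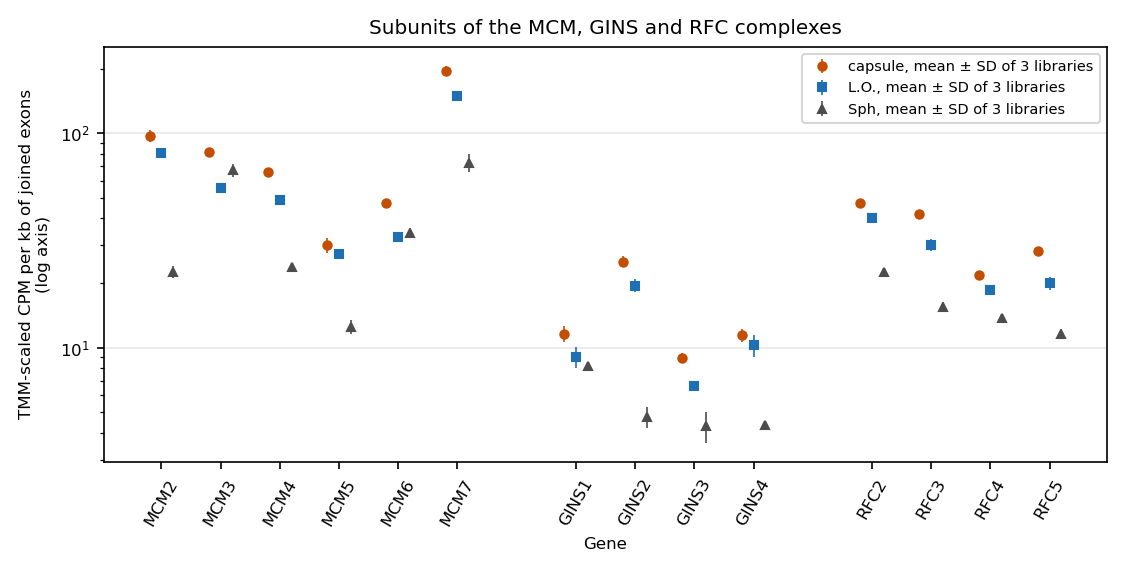
Level of the MCM, GINS and RFC subunits per kilobase of joined exons, in TMM-scaled CPM on a log axis, as mean ± SD of 3 libraries for each name set. MCM7 is the highest subunit in every set, and GINS2 leads its complex in capsule and L.O. libraries but not in Sph libraries.

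Differences between capsule and L.O. libraries moved with GC content. Spearman's rho between the log2 fold change and the GC content of the transcript was -0.643 over the 36 genes and -0.451 over 15369 genes, which share libraries and are not independent. The mean transcript GC content of counted reads was 49.8 to 50.4% in capsule, 50.7 to 51.4% in L.O. and 49.2 to 49.8% in Sph libraries. After a correction that equalised 20 GC bins, 28 of 36 genes were higher in capsules than in L.O. libraries and 0 lower, where 24.3% and 23.1% of all genes were, with a median log2 fold change of 0.31, and 22 of the 26 genes called higher before were called again. The higher calls of GINS1, PRIM1, RFC4 and CCNE2 ended. The 2 lower calls ended: CDT1 was at 0.01 (adjusted p = 0.892, edgeR) and TK1 at 0.01 (adjusted p = 0.918). E2F1, with 62.5% GC, was then called higher (0.33, adjusted p = 0.000143), and POLD1 turned from -0.16 to 0.21. Against the Sph libraries the correction gave 33 higher and 2 lower, where 43.7% and 43.6% of all genes were called, with a median of 1.02. Before the correction, rho over the 36 genes was 0.213 in that comparison. The scale mattered in the capsule and L.O. comparison too: with library totals, 16 of 36 genes were higher and 3 lower, where 14.3% and 36.8% of all genes were, with a median of 0.19 against -0.16 over all genes. The higher calls that ended with library totals were those of ORC1, MCM2, GINS1, PRIM1, POLE, RFC2, RFC4, RRM2, CCNE2 and UHRF1.

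**Figure D5:**
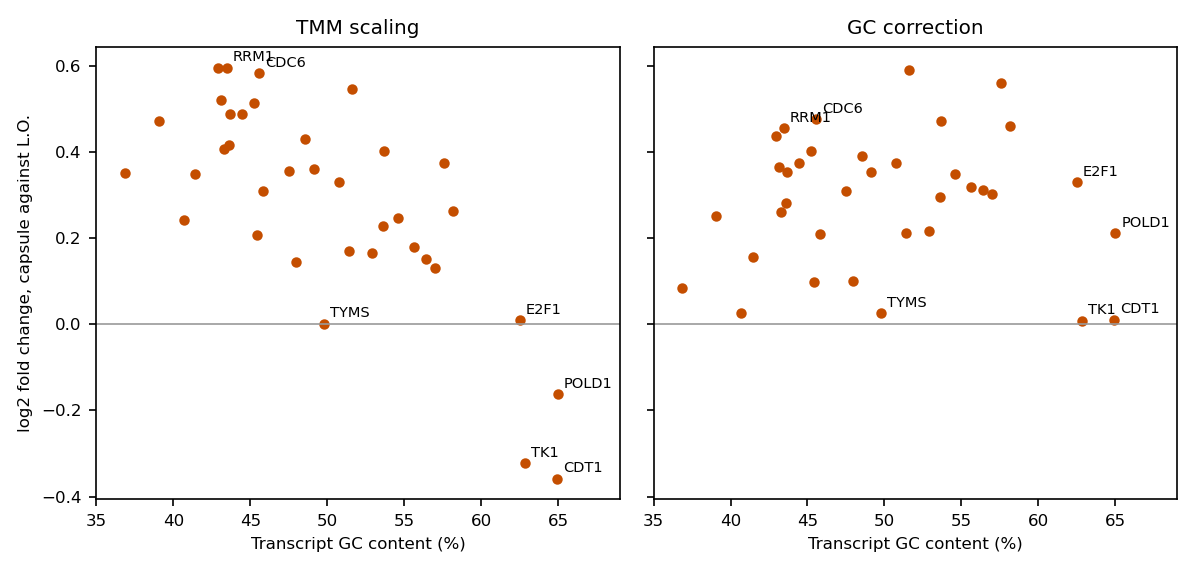
log2 fold change of capsule against L.O. libraries (vertical axis) by transcript GC content in percent (horizontal axis) for the 36 genes, before (left) and after (right) correction for GC content. Before correction CDT1, TK1 and POLD1, all of high GC content, lie below 0, with TYMS and E2F1 just above it, and after correction no point lies below 0.

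Further genes of the same processes were counted from fixed lists, which were written with earlier results of these data known. Of 44 other replication genes, 27 were higher and 4 lower in capsules than in L.O. libraries (median 1.21-fold), beside 24.7% and 25.4% of all genes. Against Sph libraries 35 were higher and 3 lower (median 1.61-fold), beside 43.2% and 42.9% of all genes. The largest differences from L.O. libraries were those of POLD4, the small subunit of polymerase delta (10.2 ± 2.07 and 25.8 ± 1.11 CPM, SD, n = 3, log2 fold change -1.35, adjusted p = 7.40e-08, edgeR), DUT, which keeps uracil out of DNA (0.71, adjusted p = 3.99e-07), and ORC5 (0.67, adjusted p = 4.96e-06). From Sph libraries they were those of POLD4 (-2.47), TICRR, which assists origin firing (2.22), and RPA2, a subunit of the single-strand binding protein (1.87).

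Of 29 genes of E2F, RB and G1 control, 12 were higher and 8 lower in capsules than in L.O. libraries (median 1.08-fold), beside 24.7% and 25.4% of all genes. Against Sph libraries 11 were higher and 14 lower (median 0.97-fold), near the 43.2% and 42.9% of all genes. CDKN1A, the p53-induced inhibitor of cyclin-dependent kinases, was at 41.9 ± 3.48 CPM in capsule, 134 ± 7.98 in L.O. and 85.1 ± 13.4 in Sph libraries (SD, n = 3), with a log2 fold change of -1.69 against L.O. (adjusted p = 2.10e-11, edgeR). CDKN1C and CDKN2B, inhibitors as well, were also lower than in L.O. libraries, at -1.45 and -0.63. Against Sph libraries the list was led by CDKN2A, CDKN2B and CCND2, a D-type cyclin, at log2 fold changes of 9.25, 7.02 and 5.92, of which the first and second are the genes deleted in MDA-MB-231.

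Of 26 genes of G2 and mitosis, 6 were higher and 5 lower in capsules than in L.O. libraries (median 1.05-fold), near or below the 24.7% and 25.4% of all genes. Against Sph libraries 17 were higher and 4 lower (median 1.30-fold), beside 43.2% and 42.9% of all genes. The largest differences from L.O. libraries were those of the checkpoint kinase TTK (0.38), the mitotic kinase CDK1 (0.33) and the kinesin KIF20A (-0.31). BIRC5, a subunit of the chromosomal passenger complex, was at 241 ± 6.34 CPM in capsule, 228 ± 3.00 in L.O. and 80.8 ± 5.98 in Sph libraries (SD, n = 3), a log2 fold change of 1.62 against Sph (adjusted p = 1.10e-13, edgeR), and the mitotic kinases AURKB and PLK1 followed at 1.56 and 1.20.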

How the data were processed

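The authors deposited a table of raw read counts, with 17911 genes by Entrez ID and 9 columns (layout per the file headers). The submitters' processing notes name hg38, featureCounts and limma. The aligner, the annotation and how strand was handled are not given in the sources used here, so reads of overlapping genes cannot be separated. The 3 capsule columns were matched to samples by name, and the 6 others to the spheroid group only.

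Counts were analysed with edgeR 4.0.16 in R 4.3.3 (filterByExpr, TMM, glmQLFit, glmQLFTest), with capsules against spheroids as the main comparison and each name set as an alternative. L.O. and Sph libraries were compared in a fit with 3 levels. DESeq2 1.42.0, limma 3.58.1 (voom), other scalings, no filter, leaving out each library and a correction for GC content, added after seeing the data, were alternatives. The tests were run on simulated data in which L.O. and Sph libraries had the same level of each gene. That run cannot show how the pooled comparison behaves where these sets differ. No pair of libraries agreed within counting noise (at least 1202 genes differed), so each counted as 1 replicate. Libraries allow a level of 0.111 to 0.22 CPM where a gene has 0 counts (3 counts, counting error only). Exon lengths and GC content came from GENCODE release 29 (17131 genes matched), and promoters and positions from RefSeq. Figures used Python 3.11.15 and matplotlib 3.10.9.

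The genes and lists were chosen with earlier results of these data known. Values in every library were given for the genes with the highest and lowest fold change of capsule against spheroid in each role and for 8 genes set by name, and other lists name the 3 genes with the largest change. The summed level of immune markers is not reported here.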

Additional observations from a re-analysis of the deposited data

Results flagged for a closer look

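E2F1 was the only one of the 36 genes flagged for a sample far from the others in the 6 spheroid libraries. Sph 3, at 87.6 CPM, lay under the other 5, which were at 98.3 to 104 CPM, and the gap to its nearest neighbour was 0.677 of the whole range, above Dixon's 95% critical value for 6 samples. Chance flags about 1 in 20 groups, and 36 genes were looked at. The 6 libraries join the L.O. and Sph sets, which did not overlap for 31 of the 36 genes. The share of all genes without overlap was not counted, but 42.4% of all genes were called higher and 43.1% lower in L.O. than in Sph libraries. A gap between the sets widens the range, so a library far from its own set could go unflagged.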

How the results depend on the processing

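Capsule against the pooled spheroids depended most on the settings. The number called higher, 3, became 0 with library totals, 11 with the DESeq2 test and 1 with GC correction (not CDC6, MCM6 or RRM1). It was 26 with L.O. libraries alone and 32 with Sph libraries alone or in the 3-level fit, and 0 to 4 without 1 library. The 0 called lower became 2, 2 and 1 with L.O. alone, Sph alone and the 3-level fit. The median log2 fold change, 0.62, was 0.67 with upper quartiles, 0.71 with limma-voom, 0.34 and 1.17 with L.O. and Sph alone, 0.71 in the 3-level fit, 0.60 with GC correction, and 0.52 to 0.74 without 1 library. Calls over all genes, 639, were 359 with library totals, 4025 with the DESeq2 test, 7970 and 13909 with L.O. and Sph alone, 12643 in the 3-level fit, and 0 to 604 without 1 library. With L.O. alone TYMS was at 0.0013.

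For capsule against L.O., 26 higher became 16 with library totals and 21 to 26 without 1 library, and 2 lower became 0 with GC correction. Over all genes, 24.7% higher became 14.3% with library totals, and 25.4% lower became 36.8% with library totals and 23.1% with GC correction. The median, 0.34, was 0.19 with library totals, 0.26 with upper quartiles, 0.31 with GC correction and 0.25 to 0.38 without 1 library. Signs turned for some genes: with library totals MCM5 (-0.018), GINS4 (-0.0014), TYMS (-0.15) and E2F1 (-0.14), with upper quartiles TYMS (-0.073) and E2F1 (-0.066), and without 1 library TYMS (-0.11 to 0.15) and E2F1 (-0.048 to 0.057). With GC correction, CDT1 (from -0.36 to 0.011) and TK1 (from -0.32 to 0.0084) turned, both called lower before it. POLD1, not called before it, turned from -0.16 to 0.21.

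For capsule against Sph, 2 lower, beside 42.9% of all genes, became 1 with library totals or upper quartiles. The median, 1.17, was 1.45 with library totals, 1.43 with upper quartiles, 1.14 with no filter and in the 3-level fit, 1.02 with GC correction, and 1.11 to 1.21 without 1 library. E2F1 turned to -0.20 with GC correction. For L.O. against Sph, 5 lower, beside 43.1% of all genes, became 2 with library totals or upper quartiles and 3 with GC correction. The median, 0.86, was 0.93 with DESeq2's size factors or test, 1.32 with library totals, 1.24 with upper quartiles and 0.67 with GC correction. Signs turned for MCM6 (0.0135 with DESeq2's size factors, 0.013 with its test, 0.41 with library totals, 0.32 with upper quartiles, 0.29 with GC correction), MCM3 (0.20 and 0.11), POLE2 (0.13 and 0.037) and PCNA (0.18 and 0.085) with library totals and upper quartiles, E2F1 (-0.50) with GC correction, and RRM1 (-0.082 to 0.096) without 1 library.

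With TTTGGCGC and TTTCGCGC alone, 31.2% of promoters of these genes held a match, against 1.9% of all. Library totals moved the median of all genes by -0.15 for capsule against L.O., 0.28 for capsule against Sph and 0.46 for L.O. against Sph. The cause of these changes was not tested. No paired analysis was possible because the spheroid columns could not be tied to single samples and so carry no replicate number of the labels.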
